A study of Homo sapiens with 24 samples.

Results

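The comparison described here set a non-targeting antisense oligonucleotide (ASO), labelled ASO-Neg, against a non-targeting small interfering RNA (siRNA), labelled siNegative, in HT-144 cells. HT-144 is an established human melanoma line derived from a metastatic site. The members were chosen by sample title, and 8 of the 24 lane files belong to them, which is 2 of the 6 libraries. ASO-Neg was transfected at 5 nM and siNegative, which the labels call a scramble siRNA, at 50 nM, each for 3 days with Lipofectamine RNAiMAX in medium carrying insulin, transferrin and selenium. A mock transfection, which the labels give no oligonucleotide or dose for, served as the third reference. The other 3 libraries received reagents against SREBF1: an siRNA pool at 50 nM (siSREBF1) and the ASOs ASO-SREBF1-S1 and ASO-SREBF1-S4 at 5 nM each. Every group was 1 library of polyadenylated RNA sequenced over 4 lanes, and lanes are technical, so the differences between these libraries have no replicate check. Chemistry, dose and oligonucleotide sequence changed together between ASO-Neg and siNegative and cannot be told apart.

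An ASO is a single modified strand that pairs with a complementary RNA; where its central part is DNA, the nuclear and cytoplasmic enzyme RNase H cuts the RNA strand of the pair. An siRNA is a short duplex from which an Argonaute protein keeps a single strand and uses it to silence complementary messages, and partial pairing through the seed of that strand can lower other messages. Non-targeting versions of both are meant to carry the chemistry and the transfection without a matched message. The labels do not state the chemistry of these ASOs.

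The summed gene counts were 17415823 for ASO-Neg, 20014261 for siNegative and 12916478 for mock, and a count of 3, the limit that a count of 0 allows, was worth 0.172, 0.15 and 0.232 CPM (counts relative to library size) in these libraries. The melanocyte lineage genes SOX10 (508 CPM in siNegative and 486 in ASO-Neg), MITF (447 and 468), PMEL (2625 and 2706), TYR (200.1 and 218) and S100B (221 and 232) were present in both, while MLANA was low at 14.5 and 15.5 CPM. No immune marker of 8 passed the filter on low counts, nor did 7 of 8 keratinocyte and 6 of 8 endothelial markers. SREBF1 stood at 218 CPM in ASO-Neg, 249 in siNegative and 232 in mock. All levels below are CPM after TMM scaling, which corrects for differences in RNA composition. In bulk RNA, fewer cells that express a gene and less of its RNA per cell cannot be told apart.

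Most genes stood at similar levels after the 2 control reagents. Of 9774 genes with at least 10 CPM in 1 of the 2 libraries, 93.2% lay within 1.2-fold of each other, with a median log2 ratio of 0.02, an SD across genes of 0.15 and a central range (5th to 95th percentile) of -0.26 to 0.21. At the size rule of at least 2-fold, 1 gene stood higher in ASO-Neg (0.0102% of genes) and 8 stood lower (0.0818%). At 1.5-fold, a size added after seeing how few genes passed 2-fold, 4 genes stood higher (0.0409%) and 34 lower (0.348%). The genes that differed by these sizes were mainly lower in ASO-Neg.

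Mock set beside both controls gave a similar spread. ASO-Neg over mock had 89.9% of 9769 genes within 1.2-fold, 1 gene 2-fold higher (0.0102%) and 8 lower (0.0819%). These are the same 9 genes as against siNegative, and the comparisons share the ASO-Neg library. siNegative over mock had 92.7% of 9802 genes within 1.2-fold, 1 gene 2-fold higher (0.0102%) and none lower (0.0%). That 1 gene was CHRDL1, a secreted antagonist of bone morphogenetic proteins, at 21.6 against 10.7 CPM. For all 8 of the lower genes the mock level was nearer to siNegative than to ASO-Neg, as it was for 55.5% of all genes.

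**Figure D1:**
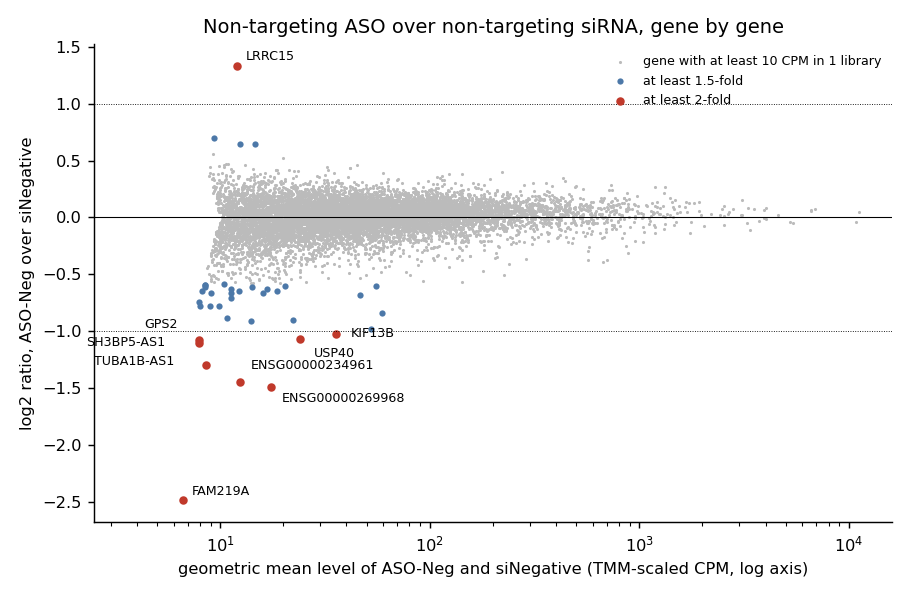
Log2 ratio of ASO-Neg over siNegative (y axis) against the geometric mean of the 2 levels in TMM-scaled CPM (x axis, log scale), 1 point per gene with at least 10 CPM in 1 of the 2 libraries. Red points are the 9 genes at least 2-fold apart, blue points the others at least 1.5-fold apart, and dotted lines mark 2-fold; FAM219A lies lowest, at -2.49, and LRRC15 is the 1 gene above the upper line.

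FAM219A had the largest difference between the controls. The gene (ENSG00000164970, GRCh38 chromosome 9, 34398184 to 34458570, minus strand) encodes a protein of the FAM219 family. Its 4 ASO-Neg lanes held 3.72, 3.07, 1.86 and 2.42 CPM. Its 4 siNegative lanes held 17.9, 15.5, 15.5 and 14.7 CPM, and the mock lanes 13.9 to 17.6. All ASO-Neg lanes thus lay far under all lanes of the other controls, although lanes share 1 library and show only sequencing spread. Summed, the level was 2.77 CPM in ASO-Neg and 15.9 in siNegative, a level of 17.4% (log2 ratio -2.49, 95% counting interval -3.0 to -2.08). The SREBF1 siRNA library stood at 15.6 CPM, and the SREBF1 ASOs at 12.8 (S1) and 15.2 (S4). ASO-Neg was the lowest of the 6 libraries, 4.62-fold under the nearest of the others.

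KIF13B and USP40 stood at about the 2-fold size. KIF13B (ENSG00000197892, chromosome 8) encodes a kinesin, a motor that carries cargo along microtubules. Its ASO-Neg lanes held 26.47, 25, 22.07 and 26.66 CPM against 53.5, 53.1, 39.98 and 57.3 in siNegative. The lanes did not overlap, and the library level was 25.03 against 50.89 CPM (log2 ratio -1.02, interval -1.19 to -0.86). ASO-SREBF1-S4, at 37.5 CPM, was the nearest of the other libraries, which reached 53.7 in mock. KIF13B dropped under 2-fold when lane 2 or lane 4 was left out.

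USP40 (ENSG00000085982, chromosome 2, 233475526 to 233566782, minus strand) belongs to the ubiquitin-specific proteases, which take ubiquitin off proteins. Its ASO-Neg lanes held 15.79, 15.57, 19.51 and 15.03 CPM against 35.2, 35.7, 32.8 and 35.1 in siNegative (log2 ratio -1.07, interval -1.28 to -0.87). Unlike FAM219A it was as low in another ASO library, with 15.9 CPM in ASO-SREBF1-S4. ASO-SREBF1-S1 held 37.0 CPM, so the 3 ASO libraries did not share the low level.

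Several genes short of 2-fold showed the pattern of FAM219A, low in ASO-Neg beside 5 libraries with a similar level. They were picked after their values were seen. C1GALT1 (ENSG00000106392, chromosome 7, 7156934 to 7248616, plus strand) encodes the enzyme that makes the core 1 structure of O-linked glycans. Its ASO-Neg lanes held 34.6, 35.9, 38.1 and 40.2 CPM and its siNegative lanes 64.0, 78.5, 74.6 and 75.8. The log2 ratio was -0.98 (interval -1.12 to -0.84), with 60.2 to 74.1 CPM in the other 5 libraries. GALC, the lysosomal galactosylceramidase, held 15.1 to 17.2 CPM in the ASO-Neg lanes and 29.3 to 31.6 in the siNegative lanes (log2 ratio -0.90). NPDC1 stood at 7.54 against 12.96 CPM (log2 ratio -0.77).

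Across the 10076 genes with at least 10 CPM in any of the 6 libraries, ASO-Neg stood apart as the lowest library by at least 1.5-fold for 7 genes and as the highest for none. Those 7 were FAM219A, C1GALT1, GALC, NPDC1, SH3BP5-AS1, ENSG00000234961 and ENSG00000269968. siNegative stood apart as the lowest for 2, CLDN1 and DKK1, and as the highest for 1, ITGA10. CLDN1 held 3.73 CPM in siNegative and 6.95 in ASO-Neg, and DKK1 0.96 and 1.77, so neither reached 10 CPM in a control. Mock stood apart for no gene, and the SREBF1 libraries as the lowest for 33 to 60 and as the highest for 10 to 31 genes.

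Other genes at least 1.5-fold lower in ASO-Neg had varied functions, and were also picked after their values were seen. SLMAP, a membrane-anchored protein of the sarcolemma and other membranes, stood at 36.9 against 59.1 CPM (log2 ratio -0.68, interval -0.82 to -0.54), with 53.5 to 60 in the other 4 libraries. SLC30A5, a zinc transporter of the secretory pathway, stood at 45.1 against 68.6 CPM. FUCA1, the lysosomal fucosidase, stood at 6.89 against 10.4 CPM, and ST6GALNAC3, a sialyltransferase, at 8.84 against 14.5. ENO3, an enolase, stood at 8.95 against 14.2 CPM. ASO-Neg was the lowest of the 6 libraries for 20 of the 34 genes, against 9.34% of all genes. The choice of genes low in ASO-Neg favours that position, so it supports nothing further.

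**Figure D2:**
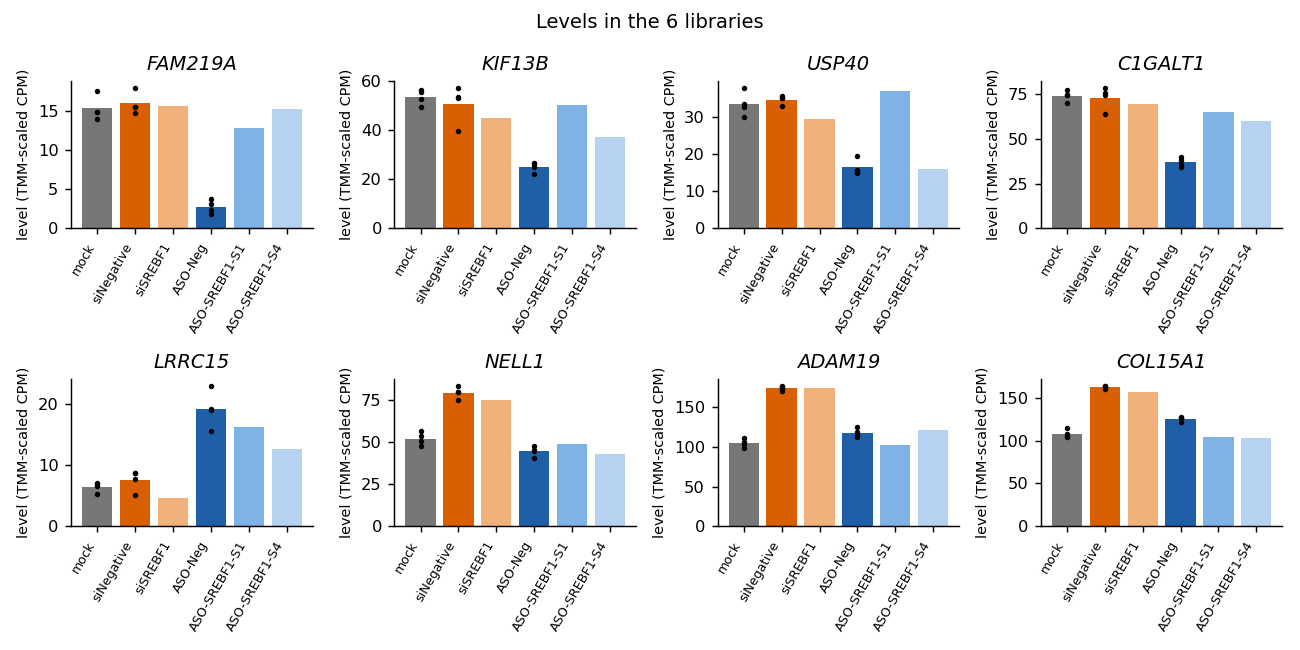
TMM-scaled CPM (y axis, from 0) of 8 genes in the 6 libraries (x axis), bars for the summed library and dots for its 4 lanes in mock, siNegative and ASO-Neg. FAM219A and C1GALT1 are low in ASO-Neg only, USP40 also in ASO-SREBF1-S4, LRRC15 is high in the 3 ASO libraries, and NELL1, ADAM19 and COL15A1 are high in the 2 siRNA libraries.

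The other 5 genes at least 2-fold lower in ASO-Neg lie opposite a far more abundant gene. ENSG00000269968, a long non-coding RNA gene (chromosome 12, 6537794 to 6538370, minus strand), lies within GAPDH, which encodes the glycolytic enzyme glyceraldehyde-3-phosphate dehydrogenase. Its lanes held 9.98, 11.1, 9.99 and 10.4 CPM in ASO-Neg and 29.0, 32.1, 27.3 and 29.1 in siNegative (log2 ratio -1.49, interval -1.75 to -1.26). ENSG00000234961 lies opposite VIM, the intermediate filament gene, at 7.48 against 20.5 CPM (log2 ratio -1.44). TUBA1B-AS1 spans the tubulin genes TUBA1B and TUBA1A, at 5.42 against 13.5 CPM (log2 ratio -1.30). SH3BP5-AS1, opposite SH3BP5, stood at 5.36 against 11.6 CPM (log2 ratio -1.1). GPS2, a protein-coding gene for a subunit of a nuclear corepressor complex, overlaps the end of the translation factor gene EIF5A and stood at 5.42 against 11.6 CPM (log2 ratio -1.08).

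Of the abundant partners, the tubulin genes stood somewhat higher in ASO-Neg and the others differed by at most 0.07 on the log2 scale. GAPDH stood at 6770 CPM in ASO-Neg and 6470 in siNegative, VIM at 3920 and 3950, TUBA1B at 1490 and 1320 (log2 ratio 0.17), TUBA1A at 252 and 217 (0.21), SH3BP5 at 568 and 581, and EIF5A at 534 and 548. As a share of its partner, ENSG00000269968 stood at 0.454% in siNegative and 0.153% in ASO-Neg, and GPS2 at 2.11% and 1.01%. For the others the shares were 0.519% and 0.191% (ENSG00000234961), 1.02% and 0.363% (TUBA1B-AS1, of TUBA1B) and 2.0% and 0.943% (SH3BP5-AS1).

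The share of reads on the strand opposite to a gene moved with these 5 genes. Over 909 abundant genes that overlap no gene on the other strand, the median share of reads opposite to the gene was 0.98% in ASO-Neg, 2.06% in siNegative and 2.36% in mock. It was lower in ASO-Neg than in siNegative for 905 of the 909. The SREBF1 libraries lay between, at 1.58% to 1.86%. Counted without strand, where pairs over 2 genes are set aside as ambiguous, ENSG00000269968 and ENSG00000234961 had 0 counts in each of the 6 libraries. TUBA1B-AS1 then had 3 counts in ASO-Neg and 1 in siNegative, GPS2 10 and 14, and SH3BP5-AS1 215 and 256. The part of opposite-strand reads in the difference of these 5 genes was not tested, and their levels are uncertain. FAM219A, KIF13B, USP40 and LRRC15 were at least 2-fold apart in the unstranded counts too, with 47 against 323 counts for FAM219A.

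Among the 9774 genes, 111 overlapped an opposite-strand gene of at least 10 times their CPM, a set defined after seeing these 5. They held 5 of the 8 genes at 2-fold and 6 of the 34 at 1.5-fold, or 5.41% of the set. Without them, 3 genes stood 2-fold lower and 1 higher, and 28 stood 1.5-fold lower and 2 higher.

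**Figure D3:**
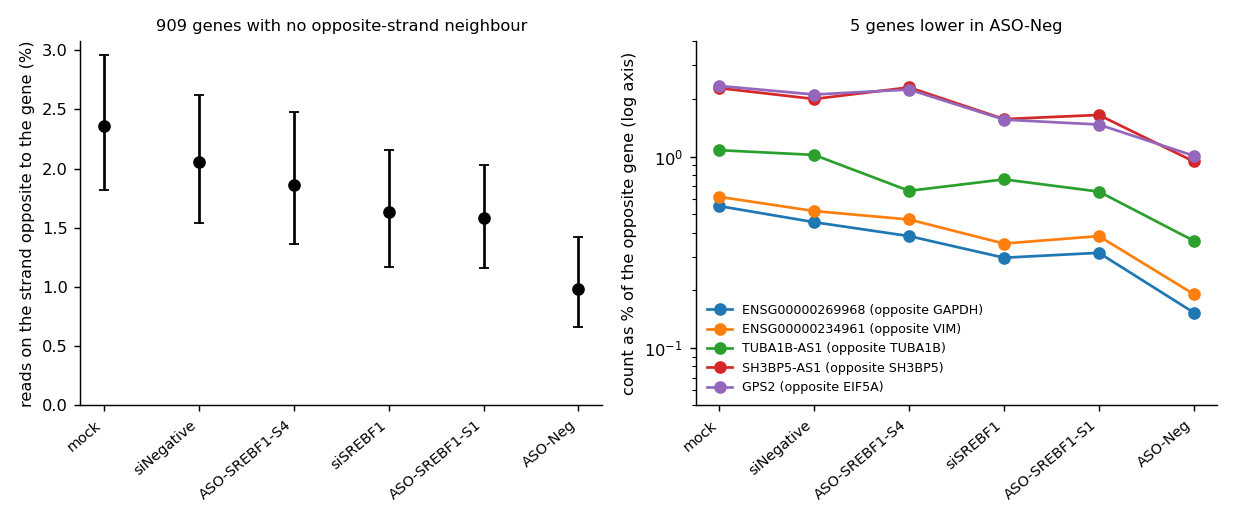
Left, median and quartiles (bars) over 909 genes of the share of reads on the strand opposite to the gene, in percent, for the 6 libraries. Right, counts of the 5 opposite-strand genes in percent of the abundant gene they overlap (log axis), with libraries in the same order; ASO-Neg is lowest in both panels.

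LRRC15 was the 1 gene at least 2-fold higher in ASO-Neg. It (ENSG00000172061, chromosome 3, 194355249 to 194369743, minus strand) encodes a leucine-rich repeat membrane protein best known from activated fibroblasts. Its ASO-Neg lanes held 23.0, 19.1, 15.6 and 19.1 CPM and its siNegative lanes 5.17, 8.68, 8.75 and 7.68. The lanes did not overlap, and the library level was 19.2 against 7.57 CPM, 2.54-fold (log2 ratio 1.33, interval 1.06 to 1.63). Mock held 6.44 CPM. The level was also high in ASO-SREBF1-S1 (16.3 CPM) and ASO-SREBF1-S4 (12.6) beside 4.69 in siSREBF1, so the 3 ASO libraries lay above the 3 others. The fibroblast markers did not move with it: 3 of 10 were at 10 CPM or more, with log2 ratios of -0.04 (FAP) to 0.13 (ACTA2). Their summed level was 148 CPM in ASO-Neg, 141 in siNegative and 152 in mock, and COL1A1, THY1, PDPN and POSTN did not pass the filter.

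Because the SREBF1 libraries repeat the ASO and siRNA contrast with other sequences, a fit across the 5 reagent libraries, with the target as a term, tested ASO against siRNA. In edgeR's quasi-likelihood test 0 of 15477 genes passed an adjusted p of 0.05 (0.0%), and 609 genes (3.93%) had an unadjusted p under 0.05. With 2 residual degrees of freedom, p-values rest on the spread among a few libraries that also differ in sequence. The ASO libraries were all at 5 nM and the siRNA libraries at 50 nM, so the fit cannot tell chemistry from dose. DESeq2's Wald test on the same counts called 3 genes, LRRC15, NELL1 and ADAM19, and limma-voom called 0. In edgeR these 3 genes were among the 5 with the smallest p, each at an adjusted p of 0.998.

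LRRC15 led that fit with a log2 difference of 1.49 (edgeR adjusted p = 0.998). NELL1, a secreted glycoprotein with EGF-like repeats (ENSG00000165973, chromosome 11, 20669551 to 21575686, plus strand), followed at -0.76. NELL1 lanes held 40.2 to 47.5 CPM in ASO-Neg, 75.0 to 83.3 in siNegative and 47.7 to 56.2 in mock. The SREBF1 siRNA library stood at 75.1 CPM, and the SREBF1 ASOs at 48.7 (S1) and 43.1 (S4). The siRNA pair thus stood above mock while the ASO libraries lay near it. ADAM19, a membrane metalloprotease, was also highest in the siRNA pair, at 174 CPM in each (ASO against siRNA -0.61). It held 118 CPM in ASO-Neg, 102 and 121 in the SREBF1 ASOs and 105 in mock. Mock, at 51.9 CPM, lay above the ASO libraries for NELL1, and it lay between them for ADAM19. COL15A1, a basement membrane collagen, held 162 and 156 CPM in the siRNA libraries against 125, 104 and 103 in the ASO libraries and 108 in mock (-0.50). The last of the 5 smallest p values belonged to ENSG00000253500, a long non-coding RNA with 3 counts in ASO-Neg and 16 in siNegative.

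The genes that differed between the controls were also looked up between the SREBF1 reagents. Both SREBF1 ASOs were at least 1.5-fold lower than siSREBF1 for 43 of the 9774 genes (0.44%) and higher for 60 (0.614%). Of the 34 genes lower in ASO-Neg, NELL1 was the 1 gene among the 43, and of the 4 higher genes LRRC15 was the 1 gene among the 60. FAM219A showed log2 ratios of -0.28 and -0.03 in those contrasts, KIF13B 0.16 and -0.26, and USP40 0.32 and -0.88.

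In another set of the genes lower in ASO-Neg, picked after their values were seen, siNegative stood above mock while ASO-Neg lay near mock. ITGA10, an integrin alpha subunit, held 22.2, 21.9, 24.3 and 25.3 CPM in the siNegative lanes, 13.2 to 17.2 in ASO-Neg and 13.62 to 16.01 in mock. Its siSREBF1 level was 10.8 CPM, so the other siRNA library did not share the high level of ITGA10. UNC13A, a synaptic vesicle priming factor, stood at 20.8 CPM in siNegative beside 13.4 in both other controls. FSD1 stood at 17.6 CPM beside 11.5 in ASO-Neg and 11.6 in mock. PTGS1, which encodes cyclooxygenase-1, stood at 19.4 CPM beside 10.3 and 12.5. BMP6, a growth factor, stood at 11.8 CPM beside 6.83 and 7.69. The siSREBF1 level lay between mock and siNegative for UNC13A (17.93 CPM), FSD1 (13.99), PTGS1 (16.45) and BMP6 (7.89). In ASO-SREBF1-S4, UNC13A stood at 34.2 CPM and PTGS1 at 24.8, both above siNegative, with FSD1 at 16.75 and BMP6 at 8.75. A high level of UNC13A and PTGS1 was thus not particular to siNegative. Of the 34 genes, 16 were at least 1.5-fold lower in ASO-Neg than in mock, 6 were at least 1.5-fold higher in siNegative than in mock, and 12 were neither.

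The 4 genes at least 1.5-fold higher in ASO-Neg were LRRC15, NANOS1, BCYRN1 and MGLL. NANOS1, an RNA-binding regulator of translation, held 11.96 CPM against 7.31, with 8.32 in mock. It held 11.9 and 17.4 CPM in the SREBF1 ASOs against 9.67 in siSREBF1. MGLL, the monoacylglycerol lipase, held 18.3 against 11.6 CPM, with 27.5 in siSREBF1. BCYRN1, a short RNA related to Alu repeats, held 15.6 against 9.94 CPM, with 11.46 in mock. It held 17.12 and 17.25 CPM in the SREBF1 ASOs against 12.65 in siSREBF1. Its counts could be shared with repeat copies and are uncertain. For NANOS1 and BCYRN1, as for LRRC15, the ASO libraries thus lay above the others. MGLL and NANOS1 overlap an opposite-strand gene of at least 10 times their CPM, as do ENO3 above and DDIT3 and IFIT1 below, so their levels carry the same limit as the 5 genes described with the opposite-strand reads.

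Pathway lists showed shifts far smaller than 2-fold. A gene is called outside counting error here where its 95% counting interval does not hold 0. Over all genes 18.2% lay wholly above 0 and 12.2% wholly below, so such intervals, which cover counting error only, are common. The RNA interference and RNase H list, the machinery of both reagents, had a median log2 ratio of 0.02 over 18 genes, 6 above counting error and 1 below. RNASEH1, the enzyme used by many ASOs, stood at 38.2 CPM in ASO-Neg and 38.8 in siNegative. AGO2, the cutting Argonaute, stood at 79.0 against 68.2 CPM (log2 ratio 0.21), AGO1 at 85.0 against 74.3, and TNRC6B, an Argonaute partner, at 69.2 against 58.3. For paraspeckle and oligonucleotide-binding proteins the median was 0.06 over 19 genes, 10 above and 3 below. There NEAT1, the RNA on which paraspeckles form, stood at 584 against 768 CPM (log2 ratio -0.40).

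No nucleic acid sensing or interferon gene at 10 CPM reached 1.5-fold. The median of the list was 0.15 over 19 genes, 10 above counting error and 1 below. The sensor IFIH1 stood at 11.9 against 12.2 CPM, the RNA-activated kinase gene EIF2AK2 at 107 against 97.7, OAS1 at 14.5 against 11.8 and IFIT1 at 18.1 against 14.8. Against mock the medians were 0.04 for ASO-Neg and -0.10 for siNegative, so siNegative lay lowest of the 3 controls. NF-kB and inflammatory genes had a median of -0.05 over 11 genes, 1 above and 1 below. The chemokine gene CXCL1 stood at 12.8 against 9.23 CPM (log2 ratio 0.47) and at 13.1 in mock, so ASO-Neg lay near mock. CXCL8, on the same list, stood at 9.07 against 11.0 CPM (-0.28) and at 7.38 in mock.

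ATF4 targets, the amino acid and stress response genes, had the highest median of the lists with 10 or more members. It was 0.19 over 21 genes, 15 above counting error and 1 below, and 0 of them reached 1.5-fold. NUPR1, a stress-induced chromatin protein, stood at 11.2 against 7.57 CPM (log2 ratio 0.56, interval 0.25 to 0.88). ALDH1L2 stood at 53.1 against 38.5 CPM (0.46) and MTHFD2 at 141 against 108 (0.38), both enzymes of mitochondrial folate metabolism. DDIT3, a stress transcription factor, stood at 21.6 against 16.1 CPM (0.42) and at 21.2 in mock. Against mock the list's medians were 0.11 for ASO-Neg and -0.08 for siNegative. NRF2 targets had a median of 0.12 over 21 genes, 12 above and 0 below, led by GCLM, a subunit of the enzyme for glutathione synthesis, at 23.8 against 16.6 CPM (0.52). For NRF2 the medians against mock were 0.00 for ASO-Neg and -0.15 for siNegative.

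Collagens and matrix genes had the lowest median, -0.12 over 23 genes, with 4 above counting error and 13 below. COL16A1 stood at 49.8 against 69.5 CPM (log2 ratio -0.48), COL6A2 at 65.1 against 90.7 (-0.48) and COL9A3 at 153 against 212 (-0.47). Cell adhesion genes had a median of -0.07 over 21 genes, 4 above and 11 below. CDH13, a membrane-anchored cadherin, stood at 38.6 against 55.8 CPM (-0.53), ITGA1 at 79.5 against 104 (-0.38) and ITGA5 at 514 against 633 (-0.30). Against mock, the adhesion medians were 0.09 for ASO-Neg and 0.24 for siNegative, and the matrix medians 0.02 and 0.07. Over all 9774 genes, ASO-Neg lay nearer to mock than siNegative did for 4345. It did so for 14 of 21 adhesion genes and 12 of 23 matrix genes. The 3 collagens named here were not among them, at log2 ratios over mock of -0.42 and 0.06 (COL6A2), -0.45 and 0.02 (COL9A3) and -0.26 and 0.22 (COL16A1) in ASO-Neg and siNegative.

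Most melanocytic genes stood lower, and most dedifferentiated melanoma genes higher, in both control transfections than in mock. Over all 9774 genes, 16.5% lay above and 13.6% below counting error in ASO-Neg over mock, and 11.3% and 13.4% in siNegative over mock. Of 19 melanocytic genes, 14 lay below in each, with 2 above in ASO-Neg and 0 in siNegative. Of 14 dedifferentiated genes, 13 lay above in ASO-Neg with 0 below, and 12 above in siNegative with 1 below. Melanocytic differentiation genes had medians against mock of -0.20 for ASO-Neg and -0.27 for siNegative, and of 0.07 between the controls (19 genes, 10 above and 3 below). DCT, an enzyme of melanin synthesis, held 1036 CPM in mock, 812 in ASO-Neg and 665 in siNegative, and TYRP1, of the same pathway, 155, 120.4 and 100.5. Dedifferentiated melanoma genes had medians against mock of 0.19 and 0.25, and of 0.01 between the controls (14 genes, 3 above and 4 below). WNT5A, a Wnt ligand, held 51.7 CPM in mock, 67.5 in ASO-Neg and 82.4 in siNegative. Exceptions were ERBB3, a receptor tyrosine kinase gene on the melanocytic list, at 0.17 in ASO-Neg and 0.01 in siNegative over mock, and FN1, the fibronectin gene, at 0.23 and -0.04. The comparisons with mock share its library, so their likeness is no independent result.

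Cell cycle and lipid lists were close to the median of all genes, other than G2/M. G2/M genes had a median of 0.11 over 24 genes, 12 above and 0 below, with the checkpoint kinase gene BUB1B at 61.6 against 51.5 CPM (0.26) and CCNB1 at 150.0 against 133 (0.18). For G1/S and DNA replication the median was 0.03 over 24 genes. In fatty acid synthesis and SREBP genes, 24 measured, it was 0.04, with SREBF1 at -0.19 (interval -0.26 to -0.13) and SREBF2, the paralog for cholesterol genes, at 0.07. FASN, the fatty acid synthase, stood at 1666 against 1835 CPM (-0.14). For cholesterol synthesis the median was 0.04 over 22 genes.

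The unfolded protein response had a median of -0.07 over 22 genes, 3 above counting error and 10 below, about that of cell adhesion. HYOU1, an endoplasmic reticulum chaperone, stood at 442 against 516 CPM (-0.22). Against mock the medians were 0.11 for ASO-Neg and 0.12 for siNegative. Endosome and lysosome genes had a median of 0.07 over 24 genes, 11 above and 4 below, with ATP6V1A, a subunit of the proton pump, at 192 against 162 CPM (0.25). The other medians were 0.07 for kinesins and motor proteins (17 genes, KIF13B being the 1 past 1.5-fold), 0.05 for hypoxia and glycolysis (24 genes) and 0.01 for mitochondrially encoded genes (13 genes). They were 0.00 for p53 targets (22 genes), 0.00 for AP-1 and YAP targets (15 genes) and -0.005 for apoptosis regulators (21 genes). CA9, a hypoxia-induced carbonic anhydrase, stood at 25.9 against 36.2 CPM (-0.48). The keratinocyte and endothelial lists had 1 gene each at 10 CPM, KRT10 (-0.10) and KDR (0.04).

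**Figure D4:**
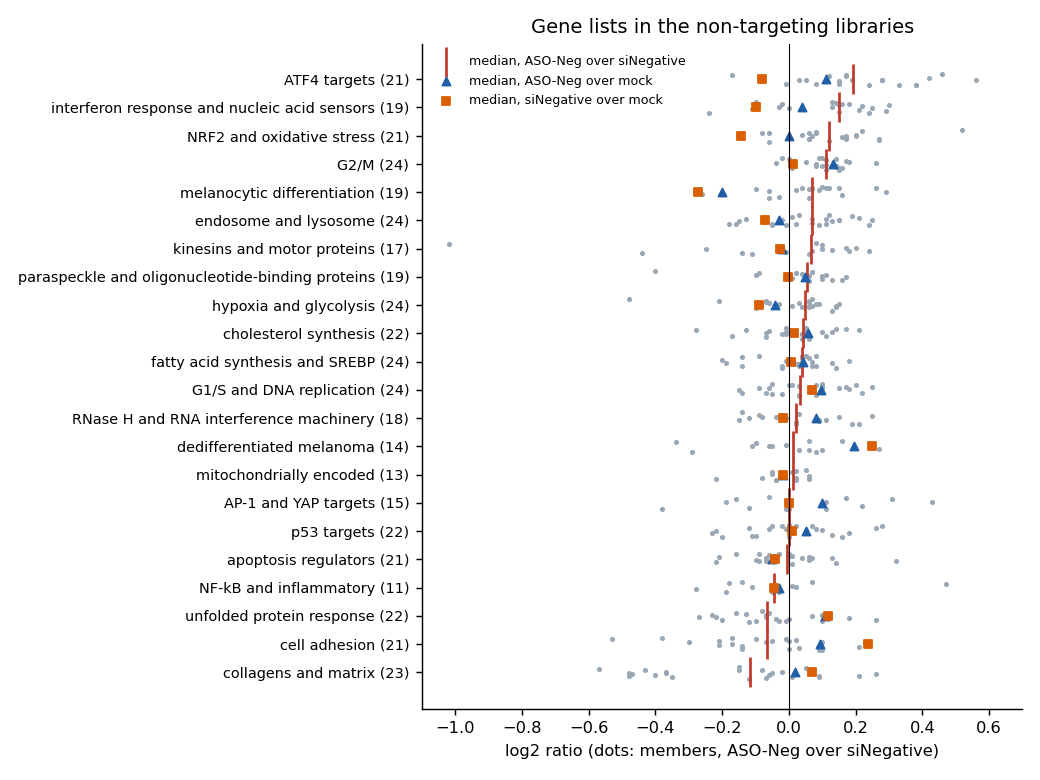
Log2 ratios of the gene lists with at least 10 members at 10 CPM (number in brackets); grey dots are members in ASO-Neg over siNegative, red ticks the list median, and blue triangles and orange squares the medians over mock. The red medians run from -0.12 (collagens and matrix) to 0.19 (ATF4 targets).

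The ratios also followed base composition. In 5 equal groups of genes by the GC content of the longest transcript, the median log2 ratio of ASO-Neg over siNegative was 0.06, 0.05, 0.04, 0.00 and -0.09, from a median GC content of 37.9% to 60.6%. ASO-Neg over mock gave 0.07 in the first and -0.12 in the last group, and siNegative over mock 0.01 and -0.04. The 34 lower genes had a median GC content of 53.9% against 47.1% for all. Each of the 4 genes at least 1.5-fold higher in ASO-Neg also lay above 47.1%. A high GC content was thus not particular to the lower genes. FAM219A (58.4%) was GC-rich, while C1GALT1 (35.9%) and GALC (41.0%) were not. With the median of 10 groups of GC content subtracted, 9 genes stood 2-fold lower and 1 higher, and 35 and 4 at 1.5-fold. The part of GC content in the list medians above was not tested.

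**Figure D5:**
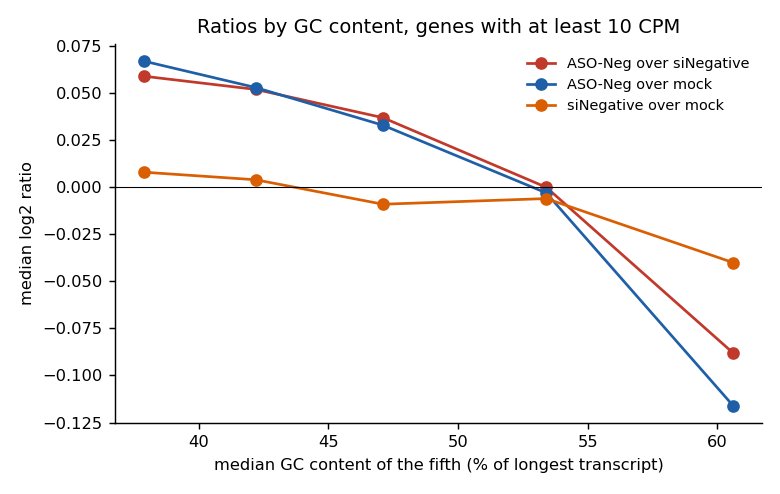
Median log2 ratio (y axis) of genes with at least 10 CPM in 5 groups of GC content (x axis, median percent of each group), for the 3 pairs of control libraries. Both ratios with ASO-Neg decline from the first to the last group, and siNegative over mock varies least.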

How the data were processed

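RNA of HT-144 cells was sequenced as stranded 75 bp read pairs, per the labels' protocols. The deposited files hold whole-number read counts per gene for each lane, from the authors' alignment with STAR 2.6.1a to GRCh38, per the submitters' processing notes. The gene annotation is not given in the sources used here. Reverse-strand counts of 58735 genes were used, and the other strand held 6.47% of both in ASO-Neg, 7.49% in siNegative and 7.79% in mock. Reads naming no gene were left out, and 80.65% to 81.82% of pairs fell in genes. Of the identifiers, 58207 matched GENCODE release 44, with 99.93% of counts.

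Lanes agreed within sampling noise (chi-square per degree of freedom 1.0 to 1.07 within a library, 1.97 to 2.03 between ASO-Neg and siNegative lanes) and were summed, so lanes count once. Log2 ratios used TMM-scaled CPM and a prior count of 2 (edgeR 4.0.16, R 4.3.3), after filterByExpr (14054 genes) with exact conditional 95% counting intervals, which cover counting error only. The size rule was 2-fold with 10 CPM in 1 of the 2 libraries. ASO against siRNA was tested with edgeR's quasi-likelihood F test (2-sided, Benjamini-Hochberg). P-values there measure the spread between these libraries; no label names separate cultures. Alternatives used DESeq2 1.42.0 and limma 3.58.1, other scalings, prior counts, minima and unstranded counts, and left out lanes or libraries.

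Members and the 26 gene lists were chosen with earlier results of these data known. Genes were named by rule: SREBF1, SREBF2, FAM219A, LRRC15, KIF13B, up to 15 largest rises and falls past the size rule, up to 4 members per list and the 5 smallest p in the fit. Other names were chosen after their values were seen, as were the 1.5-fold rule, the correction by 10 groups of GC content and the set of genes under a louder opposite-strand gene. The size rule and fit were tested on simulated counts with effects shared by all ASO libraries. The simulation held no differences between reagent sequences, so it does not show how the size rule and fit handle them.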

Additional observations from a re-analysis of the deposited data

Results flagged for a closer look

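The lanes of ASO-Neg held 1 value apart from the others for 2 of 24 sets of lane values checked. For SREBF1 the lanes held 222, 225, 224 and 199 CPM, and the gap of the lowest lane was 0.868 of the range. For USP40 they held 15.79, 15.57, 19.51 and 15.03 CPM, and the gap of the highest lane was 0.83 of the range, just past the limit for 4 values. Chance gives such a gap in about 1 in 20 sets of 4 values.

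Among the 9 genes at least 2-fold apart, 2 had ASO over siRNA ratios of the other sign with both SREBF1 ASOs, and the difference was not tested. ENSG00000269968 had a log2 ratio of -1.49 in ASO-Neg over siNegative and of 0.04 and 0.05 in the SREBF1 ASOs over siSREBF1, whose counting intervals hold 0 (-0.15 to 0.24 and -0.18 to 0.29). GPS2 had -1.08 against 0.09 (interval -0.23 to 0.41) and 0.49 (0.14 to 0.86). Both lie opposite a more abundant gene, and the opposite-strand read shares given for them were lowest in ASO-Neg.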

How the results depend on the processing

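Each comparison of controls rests on 1 library a side, and low counts limit it. With a minimum of 5 CPM, 16 genes stood 2-fold lower in ASO-Neg than in siNegative, 24 lower than in mock, and for siNegative over mock 4 higher and 3 lower, while 1.5-fold gave 11 higher and 76 lower. With 20 CPM the genes over siNegative were 0 higher and 4 lower (1.5-fold, 0 and 13) and over mock 0 and 4. Unstranded counts left 3 lower genes over siNegative, 4 over mock and 0 higher in siNegative over mock, where a prior count of 5 also gave 0. Without genes under a louder opposite-strand gene, 3 stood 2-fold lower and 2 stood 1.5-fold higher. Leaving out 1 lane of each library gave 7 to 8 genes 2-fold lower and 1 higher, 7 to 10 lower and 1 to 2 higher over mock, and 28 to 45 lower and 2 to 5 higher at 1.5-fold. KIF13B was lost without lane 2 or 4, and GPS2 without lane 1. No ratio of the 9 genes at least 2-fold apart changed sign where it was computed. In unstranded counts ENSG00000269968, ENSG00000234961, TUBA1B-AS1 and GPS2 were too low for a ratio, and that of SH3BP5-AS1 was -0.02. In ASO against siRNA, DESeq2 called 3 genes, the fit with no filter on low counts 129, and leaving out 1 library 0 to 4: SCG2 without ASO-Neg, and LRRC15, NELL1, SSUH2 and USP40 without ASO-SREBF1-S1. The cause was not tested. No paired analysis was possible because the labels' replicate numbers are lanes of 1 library per group.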
